A study of Homo sapiens with 16 samples.

Results

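The subject here is a difference between differences: how the response to the androgen dihydrotestosterone (DHT) in Ver cells departed from the response to it in Vc cells. For every gene it is the log2 change with DHT against control in Ver, minus the same change in Vc. It was measured in 8 of the 16 polyA RNA-seq libraries of the series, 2 in each of 4 groups, and tested for all 22553 genes that passed the filter on low counts. Both lines are VCaP, a human prostate cancer cell line in which a gene fusion puts the ETS factor ERG under the androgen-driven TMPRSS2 promoter. Ver cells had spent 4 months with 1 µM of the antiandrogen enzalutamide, and Vc cells 4 months with ethanol instead. Hormone was then withdrawn from all 4 groups for 48 h or longer, in charcoal-stripped serum and medium free of phenol red, before a treatment of 24 h. The groups were Ver with 1 nM DHT, Ver control, Vc with 1 nM DHT and Vc control. Ver and Vc are 1 line each, and the labels do not say whether the 2 libraries of a group came from separate cultures, so p-values measure the spread between these libraries, which may be technical.

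DHT binds the androgen receptor, which then enters the nucleus, sits on DNA at paired half-sites and changes transcription together with pioneer factors such as FOXA1. In prostate luminal cells this switches on genes for secreted proteases, lipid synthesis and secretory traffic, and lowers another set of genes. Enzalutamide competes for the hormone pocket of the receptor. Each difference in response combines 4 levels, with and without hormone in each line. These levels are given for many of the genes described, and not for the others. Where they are missing, the text does not show in which state the lines differed.

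The 8 libraries held 9733719 to 13273523 counts in genes. The share of reads in no gene was lower with DHT by nearly the same amount in both lines, with changes of -3.40 percentage points in Ver and -3.39 in Vc. All 19 luminal epithelial markers had counts, with summed levels of 5113 to 5234 CPM (counts scaled to the size of the library) in Ver with DHT, 3048 to 3101 CPM in Ver control, 5560 to 5623 CPM in Vc with DHT and 3027 to 3040 CPM in Vc control. Of 14 stromal and endothelial markers 2 were at 0 in all 8 libraries, and the sums were 8.65 to 8.77 CPM in Ver with DHT, 61.0 to 69.4 CPM in Ver control, 6.41 to 8.94 CPM in Vc with DHT and 22.9 to 25.2 CPM in Vc control. Of 12 immune markers 4 were at 0 and no library passed 5.43 CPM. Among 15 basal prostate markers 3 were at 0, and the sums were lower in Ver than in Vc. They were 275.1 to 308.3 CPM in Ver with DHT and 302.7 to 303.9 CPM in Ver control. In Vc they were 494.9 to 499.5 CPM with DHT and 530.6 to 531.1 CPM in control. The part of these levels in the results was not tested. In bulk RNA fewer cells of a type and less RNA per cell cannot be told apart. Library names in the labels end in L002 for every Ver library and L008 for every Vc library, so that suffix and the line cannot be told apart. Each DHT response lies within 1 suffix.

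The difference passed the test for 523 of 22553 genes (2.32%; edgeR's quasi-likelihood test, Benjamini-Hochberg adjusted p below 0.05). Of these 201 were higher in Ver (0.891%) and 322 lower (1.43%). Differences of at least 2-fold were rare, with 45 higher genes (0.2%) and 44 lower ones (0.195%). The DHT response itself was called for 44.1% of genes in Ver and 44.3% in Vc. The 523 genes fell into distinct patterns. In 312 genes DHT moved expression the same way in both lines and the sizes differed: 185 responded less in Ver and 127 more. The response was called in Vc alone for 98 genes and in Ver alone for 88, and in 25 genes DHT was called in opposite directions. The median difference over all 22553 genes was -0.01. Most of the 523, namely 478, were protein-coding. The share of protein-coding genes among all genes tested is not given here, so this count does not set the 523 apart.

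**Figure D1:**
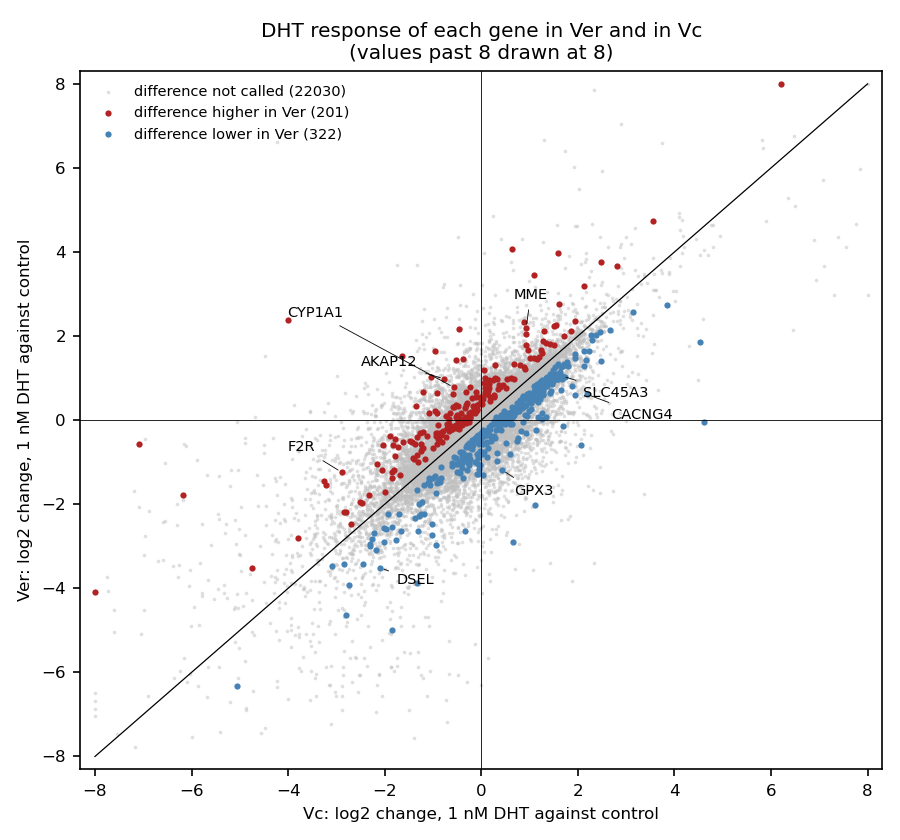
Each point is a gene: the x axis is its log2 change with 1 nM DHT in Vc and the y axis the same change in Ver (2 libraries per group, values past 8 drawn at 8). Red points are the 201 genes whose response was higher in Ver and blue points the 322 lower; the diagonal marks equal responses, AKAP12 and CYP1A1 lie in the upper left quadrant and GPX3 in the lower right.

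A single library mattered for many of these calls. The count of 523 was 300 without Ver control replicate 2, 325 without Ver DHT replicate 2, 323 without Vc DHT replicate 2 and 318 without Vc control replicate 1. Of the 523 genes 166 were called in all 8 fits without 1 library, and 164 of them in every alternative tried. Unless a sentence says otherwise, the difference of each gene given as called below was called in every alternative that gave it an adjusted p; lost calls are listed beside the gene.

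The largest pattern, with 128 genes, was induction in both lines that was smaller in Ver. SLC45A3, a prostate-specific sugar transporter gene (chr1:205657851-205680459), had 1044 and 984 CPM with DHT and 464 and 513 CPM in control in Ver, against 1624 and 1620.4 CPM with DHT and 491 and 527 CPM in control in Vc. The control libraries of the lines overlapped, and the DHT libraries did not. DHT raised it by 1.05 log2 units in Ver and 1.67 in Vc, a difference of -0.62 (SE 0.068, adjusted p = 1.4e-12). CKB, brain-type creatine kinase, had 1088 and 1085 CPM with DHT and 334 and 359 CPM in control in Ver, against 2304 and 2541 CPM with DHT and 490.1 and 541 CPM in control in Vc; it was lower in Ver in both states, and further so with DHT. The difference was -0.58 (SE 0.073, adjusted p = 8.9e-09). MCCC2, a subunit of the mitochondrial leucine-breakdown enzyme methylcrotonyl-CoA carboxylase, had 468 and 457 CPM with DHT and 247 and 237 CPM in control in Ver, against 549 and 553 CPM with DHT and 181 and 210.4 CPM in control in Vc. Here the lines crossed: Ver was the higher line in control and the lower one with DHT, with a difference of -0.56 (SE 0.076, adjusted p = 1.4e-08).

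SAT1, which acetylates polyamines for export and breakdown, had 423 and 431 CPM with DHT and 137 and 137 CPM in control in Ver, against 463 and 463 CPM with DHT and 105 and 105 CPM in control in Vc, a difference of -0.50 (SE 0.079, adjusted p = 8.9e-07). The keratin gene KRT19, a luminal epithelial marker, gave -0.55 (SE 0.085, adjusted p = 5.7e-07), and the glutamine transporter gene SLC1A5 gave -0.45 (SE 0.081, adjusted p = 3.1e-05). CACNG4, an auxiliary calcium channel subunit, had the widest gap in response among genes of this pattern named here. It had 16.8 and 17.9 CPM with DHT and 11.8 and 10.7 CPM in control in Ver, against 34.2 and 33.9 CPM with DHT and 8.01 and 6.97 CPM in control in Vc, which is -1.56 (SE 0.22, adjusted p = 2.9e-08). The control libraries were higher in Ver and the DHT libraries higher in Vc, without overlap. The metalloreductase gene STEAP2 rose in Ver by 0.22, against 0.69 in Vc, and is of the same pattern. Its neighbour STEAP1 was called in Ver alone, with a log2 change of -0.39 in Ver and 0.02 in Vc. The difference was -0.46 (SE 0.060, adjusted p = 2.1e-09) for STEAP2 and -0.42 (SE 0.077, adjusted p = 5.7e-05) for STEAP1; both genes overlap the antisense gene STEAP2-AS1, and the counting did not use strand.

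In 48 genes induction was larger in Ver. MME, the cell-surface peptidase neprilysin (chr3:155024124-155183729), had 310.1 and 356 CPM with DHT and 74.9 and 70.1 CPM in control in Ver, against 817 and 859 CPM with DHT and 445 and 434 CPM in control in Vc. Ver was far below Vc in control and remained below it with DHT, although DHT raised it 4.60-fold in Ver against 1.91-fold in Vc. The difference was 1.27 (SE 0.097, adjusted p = 2.1e-12). NUCB2, a calcium-binding protein and the precursor of nesfatin, had 297 and 326 CPM with DHT and 64.5 and 64.5 CPM in control in Ver, against 299 and 289.5 CPM with DHT and 102 and 98.3 CPM in control in Vc, so that the lines came to overlapping levels with DHT. Its difference was 0.72 (SE 0.089, adjusted p = 3.8e-10). KCNMA1, the pore subunit of the large-conductance calcium-activated potassium channel, had 226 and 250.2 CPM with DHT and 49.2 and 51.3 CPM in control in Ver, against 273 and 273 CPM with DHT and 94.6 and 98.1 CPM in control in Vc. It stayed below Vc in both states, with a difference of 0.74 (SE 0.092, adjusted p = 4.7e-10). MOCOS, which sulfurates the molybdenum cofactor, was induced by 2.33 in Ver and 0.88 in Vc, and CLGN, a chaperone of the endoplasmic reticulum, by 2.77 in Ver and 1.61 in Vc. The splicing regulator MBNL2 had 104 and 111 CPM with DHT and 58.2 and 51.9 CPM in control in Ver, against 114 and 110.1 CPM with DHT and 93.1 and 97.5 CPM in control in Vc, a difference of 0.73 (SE 0.10, adjusted p = 2.2e-08); its rise in Vc (adjusted p = 0.00248) was not called without Vc DHT replicate 1 (adjusted p = 0.0535) or without Vc control replicate 1 (0.0532). MME, KCNMA1 and other genes here overlap antisense or other genes, whose reads were not separated.

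**Figure D2:**
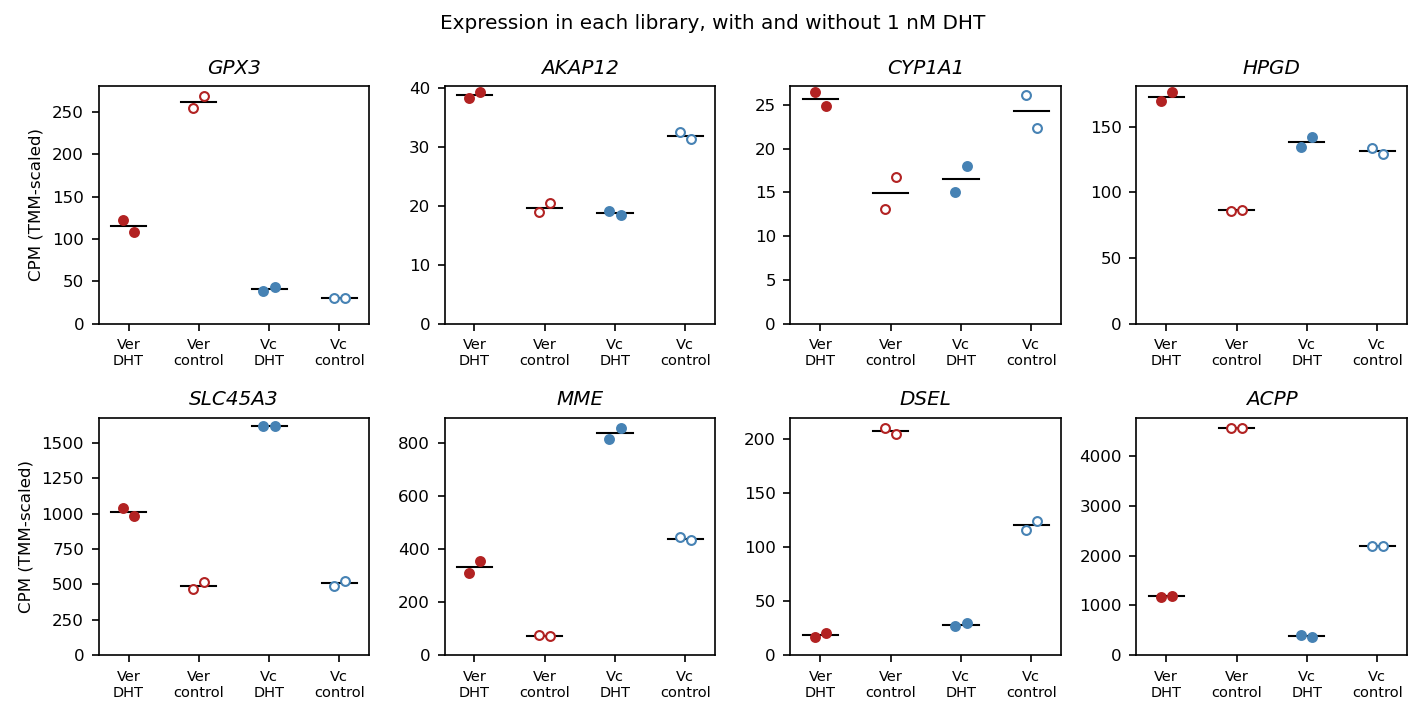
CPM of 8 genes in each library: points are libraries (filled with 1 nM DHT, open in control; red Ver, blue Vc), lines are group means, and each y axis starts at 0. GPX3 fell with DHT in Ver and rose in Vc, AKAP12 and CYP1A1 did the opposite, and for SLC45A3 the lines overlapped in control and separated with DHT.

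Repression reached further in Ver for 79 genes. DSEL, an epimerase-like gene of dermatan sulfate synthesis (chr18:67506582-67516980), had 16.4 and 19.9 CPM with DHT and 210.0 and 204 CPM in control in Ver, against 26.7 and 29.6 CPM with DHT and 115 and 124 CPM in control in Vc. Ver was the higher line in control and the lower one with DHT, and DHT lowered DSEL by 91.2% in Ver and 76.5% in Vc, a difference of -1.42 (SE 0.12, adjusted p = 5.6e-19). FOLH1, which encodes the prostate-specific membrane antigen, had 37.5 and 38.7 CPM with DHT and 425 and 395 CPM in control in Ver, against 46.4 and 54.9 CPM with DHT and 367 and 352 CPM in control in Vc; the log2 change was -3.43 in Ver and -2.83 in Vc, a difference of -0.59 (SE 0.095, adjusted p = 1.9e-06). RDH11, a retinal reductase gene, had 153 and 141 CPM with DHT and 299 and 295 CPM in control in Ver, against 167 and 152 CPM with DHT and 191 and 191 CPM in control in Vc. It was above Vc in control and reached overlapping levels with DHT, with a difference of -0.76 (SE 0.081, adjusted p = 6.0e-13). The zinc transporter gene SLC30A4 gave -0.78 (SE 0.079, adjusted p = 2.3e-14); it overlaps the pseudogene HMGN2P46 on the other strand. SELENBP1, a selenium-binding protein gene, gave -0.62 (SE 0.080, adjusted p = 2.2e-09), and ABCC3, a drug and bile-salt exporter gene, gave -0.78 (SE 0.11, adjusted p = 1.4e-07).

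Repression was weaker in Ver for 57 genes. ACPP, prostatic acid phosphatase, had 1175 and 1186 CPM with DHT and 4565 and 4572 CPM in control in Ver, against 399 and 371 CPM with DHT and 2187 and 2194 CPM in control in Vc. It was the more abundant in Ver in both states, and the log2 change was -1.95 in Ver and -2.51 in Vc, a difference of 0.56 (SE 0.062, adjusted p = 2.7e-12). LAMA3, a chain of the basement-membrane protein laminin-332, had 174 and 165 CPM with DHT and 259.9 and 240.0 CPM in control in Ver, against 169 and 155 CPM with DHT and 392 and 384 CPM in control in Vc. The lines differed in control and overlapped with DHT, with a difference of 0.70 (SE 0.079, adjusted p = 4.4e-12). The nucleolar protein gene NCL gave 0.53 (SE 0.080, adjusted p = 4.5e-07) and IRS2, an adaptor of the insulin receptor, 0.56 (SE 0.080, adjusted p = 7.9e-08). F2R, the thrombin receptor, had 3.83 and 2.77 CPM with DHT and 7.95 and 7.69 CPM in control in Ver, against 4.598 and 4.27 CPM with DHT and 34.2 and 31.9 CPM in control in Vc; its difference was 1.65 (SE 0.29, adjusted p = 2.5e-05). NOV, a matricellular signalling gene, was at 0 in both Vc DHT libraries, so its fall in Vc was at least 140.9-fold against a floor of 3 counts over the group, while in Ver it had 0.803 and 0.277 CPM with DHT and 8.73 and 10.1 CPM in control. Its call was lost with Ver DHT replicate 1 (adjusted p = 0.0673) left out.

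In the 25 genes called in opposite directions, 14 rose in Ver and fell in Vc, and 11 did the reverse. GPX3, a secreted glutathione peroxidase (chr5:151020438-151028993), had 122 and 108 CPM with DHT and 255 and 269 CPM in control in Ver, against 38.8 and 42.7 CPM with DHT and 29.95 and 30.2 CPM in control in Vc. No libraries of different groups overlapped: DHT lowered it in Ver and raised it in Vc, with log2 changes of -1.18 in Ver and 0.43 in Vc, a difference of -1.62 (SE 0.11, adjusted p = 6.9e-28). Ver held 8.70 times the Vc level in control and 2.83 times with DHT. AKAP12, a scaffold that anchors protein kinase A (chr6:151239999-151358557), had 38.3 and 39.3 CPM with DHT and 18.9 and 20.4 CPM in control in Ver, against 19.1 and 18.5 CPM with DHT and 32.6 and 31.3 CPM in control in Vc. Its DHT level in Ver was above every other group, and Ver control overlapped Vc with DHT; the difference was 1.74 (SE 0.18, adjusted p = 2.1e-13). CYP1A1, a detoxifying cytochrome of the aryl hydrocarbon receptor pathway (chr15:74719542-74725610), had 26.5 and 24.8 CPM with DHT and 13.1 and 16.7 CPM in control in Ver, against 15.03 and 17.99 CPM with DHT and 26.2 and 22.3 CPM in control in Vc, a difference of 1.34 (SE 0.20, adjusted p = 4.2e-07). Ver with DHT and Vc control overlapped there, as did the other pair of groups. SIPA1L2, which encodes a GTPase-activating protein for Rap1, had 17.5 and 16.3 CPM with DHT and 10.4 and 11.2 CPM in control in Ver, against 15.8 and 12.6 CPM with DHT and 26.3 and 27.9 CPM in control in Vc, and differed by 1.57 (SE 0.22, adjusted p = 1.3e-08). The sulfotransferase gene SULT1C2 had 3.57 and 3.32 CPM with DHT and 0.9698 and 1.52 CPM in control in Ver, against 18.4 and 18.1 CPM with DHT and 22.5 and 25.1 CPM in control in Vc, and differed by 1.83 (SE 0.37, adjusted p = 1.4e-04). Its fall in Vc (adjusted p = 0.0323) was not called by DESeq2 (adjusted p = 0.0877), with no low-count filter (0.0528), without Vc DHT replicate 1 (0.117), without Vc DHT replicate 2 (0.131) or without Vc control replicate 2 (0.249). The non-coding gene LINC00662 gave 0.88 (SE 0.097, adjusted p = 1.9e-12) and shares its strand with AC006504.1, whose reads cannot be told from its own with certainty.

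Among the 88 genes called in Ver alone, HPGD, which breaks down prostaglandins (chr4:174490177-174523154), had 169 and 176 CPM with DHT and 85.5 and 86.8 CPM in control in Ver, against 134 and 142 CPM with DHT and 133 and 129 CPM in control in Vc. The Vc groups lay close together, Ver control was below both and Ver with DHT above them, a difference of 0.93 (SE 0.092, adjusted p = 8.9e-15). The amino acid transporter gene SLC7A8 had 37.2 and 34.1 CPM with DHT and 20.6 and 18.1 CPM in control in Ver, against 42.5 and 38.1 CPM with DHT and 40.3 and 37.7 CPM in control in Vc: both Vc groups overlapped, and DHT brought Ver to just below them, with a difference of 0.84 (SE 0.17, adjusted p = 2.6e-04). SYNE2, a nuclear envelope linker gene that overlaps ESR2 on the other strand, gave 0.65 (SE 0.088, adjusted p = 9.6e-09). CCDC74A, which has a near-identical copy, CCDC74B, so its reads are uncertain, had 43.2 and 37.6 CPM with DHT and 95.2 and 102 CPM in control in Ver, against 41.96 and 40.95 CPM with DHT and 44.5 and 41.9 CPM in control in Vc. Ver control stood apart and the other groups lay together; the difference was -1.23 (SE 0.12, adjusted p = 1.2e-14).

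SOD2, the mitochondrial superoxide dismutase, is a further gene called in Ver alone, where it was lowered. It had 65.9 and 61.4 CPM with DHT and 103 and 110.5 CPM in control in Ver, against 119 and 124 CPM with DHT and 123 and 125 CPM in control in Vc, a difference of -0.71 (SE 0.096, adjusted p = 8.9e-09), and it overlaps WTAP on the other strand. With GPX3 it makes up the members of the antioxidant list called lower for the difference. DHT itself lowered 6 of the 20 tested members in Ver and raised 6, where 22.9% of all genes were lower and 21.2% higher. In Vc it lowered 4 of them and raised 6. The promoters of GPX3 and SOD2 are shown because both encode peroxide-handling or superoxide-handling enzymes that DHT lowered in Ver. The 250 bases before the start that RefSeq gives (GRCh38.p14, gene strand, 5′ to 3′) are printed, with the androgen half-site AGAACA, searched on both strands, in capitals. The GPX3 window is chr5:151020341-151020590 on the plus strand and the SOD2 window chr6:159762282-159762531 on the minus strand. By the position given above for the gene, GPX3 starts inside its window. SOD2 has 4 starts in that table, and the window and its half-site belong to 1 of them.
GPX3: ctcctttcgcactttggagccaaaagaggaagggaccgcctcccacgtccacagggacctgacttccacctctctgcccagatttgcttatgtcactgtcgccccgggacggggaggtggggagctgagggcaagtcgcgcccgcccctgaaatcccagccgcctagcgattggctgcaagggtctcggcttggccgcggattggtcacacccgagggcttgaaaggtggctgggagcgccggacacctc
SOD2: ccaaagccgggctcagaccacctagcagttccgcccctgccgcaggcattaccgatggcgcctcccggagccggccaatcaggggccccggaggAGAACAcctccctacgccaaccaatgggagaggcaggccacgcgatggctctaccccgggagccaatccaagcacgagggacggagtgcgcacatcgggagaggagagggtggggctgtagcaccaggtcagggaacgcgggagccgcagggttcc
A half-site was found in the SOD2 window, 156 bases before that 1 start, and none was found in the GPX3 window. Such a half-site was in 12.4% of all 35116 promoters of that table, in 8.65% of promoters of tested genes and in 6.72% of promoters of called genes. A match is a description of letters in this window only.

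In 98 genes the response was called in Vc alone, which does not show that Ver did not respond. LAMA5, a laminin chain, rose in Vc, and its response in Ver was not called. In Ver it had 217 and 201 CPM with DHT and 190.4 and 213 CPM in control. In Vc it had 271 and 275 CPM with DHT and 164 and 185 CPM in control. The difference was -0.59 (SE 0.083, adjusted p = 5.7e-08), and the gene overlaps ADRM1. AKAP7, another anchor of protein kinase A, had 8.92 and 15.3 CPM with DHT and 15.4 and 14.7 CPM in control in Ver, against 33.2 and 37.5 CPM with DHT and 18.9 and 18.4 CPM in control in Vc; the Ver groups overlapped, and Vc with DHT stood above the rest, a difference of -1.23 (SE 0.21, adjusted p = 9.6e-06). Its response in Ver (adjusted p = 0.101) was called without Ver DHT replicate 2 (adjusted p = 9.0e-04). FOXA1, the pioneer factor, had 651 and 641 CPM with DHT and 648 and 667 CPM in control in Ver, against 756 and 756 CPM with DHT and 603 and 639 CPM in control in Vc. The Ver groups overlapped, Vc rose with DHT, and the difference was -0.31 (SE 0.068, adjusted p = 0.001305); FOXA1 overlaps TTC6 on the other strand. SCGN, a calcium-binding protein of endocrine cells, had 11.3 and 11.2 CPM with DHT and 9.698 and 8.05 CPM in control in Ver, against 15.2 and 14.6 CPM with DHT and 37.3 and 38.6 CPM in control in Vc, so that DHT lowered it in Vc, and its change of 0.34 in Ver was not called; the difference was 1.69 (SE 0.22, adjusted p = 1.5e-09).

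Known androgen-induced genes were tested as a list of 42. With DHT 37 of them were higher in Ver, where 21.2% of all genes were, and 38 in Vc, where 21.8% were, and for the difference 4 were higher and 5 lower, against 2.32% of all genes called. The median difference was -0.11, against -0.01 over all genes. The 5 lower calls held in number in all 13 alternatives, while 2 of the list were higher by DESeq2 and in 6 of the 8 fits without 1 library: without either Ver control, either Vc control, Ver DHT replicate 2 or Vc DHT replicate 1. The lower genes included SLC45A3, STEAP1 and STEAP2, given above, and PMEPA1, an inhibitor of TGF-beta signalling, with -0.35 (SE 0.065, adjusted p = 6.5e-05). The 4 higher were ZBTB10, a zinc-finger gene with 0.40 (SE 0.074, adjusted p = 5.4e-05), STEAP4, ZBTB16 and TRPM8. STEAP4 differed by 2.15 (SE 0.70). Its mean levels were 80.3 CPM with DHT and 0.231 CPM in control in Ver, against 84.6 and 1.13 CPM in Vc. The value of STEAP4 thus rests on control libraries with few counts. The call of ZBTB16 (adjusted p = 0.0145) was lost with Ver DHT replicate 2 (adjusted p = 0.0626), Ver control replicate 1 (0.1205), Vc DHT replicate 1 (0.1099) or Vc control replicate 2 (0.152) left out. That of STEAP4 (adjusted p = 0.0173) was lost with Ver control replicate 1 (adjusted p = 0.164), Ver control replicate 2 (0.1300) or Vc control replicate 1 (0.165) left out, and by DESeq2 (0.0621). That of TRPM8 (adjusted p = 0.0437) was lost with Ver DHT replicate 2 (adjusted p = 0.372), Ver control replicate 2 (0.512), Vc DHT replicate 1 (0.0692), Vc DHT replicate 2 (0.162), Vc control replicate 1 (0.122) or Vc control replicate 2 (0.107) left out, and by DESeq2 (0.0778), with no low-count filter (0.0533) or with only the 8 libraries of the contrast (0.0508).

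Several central androgen targets did not pass the test of the difference. FKBP5, a co-chaperone of steroid receptors, had 1711 and 1845 CPM with DHT and 68.95 and 74.1 CPM in control in Ver, against 1761 and 1784 CPM with DHT and 64.7 and 63.1 CPM in control in Vc, a difference of -0.16 (SE 0.11, adjusted p = 0.605). The kallikrein protease genes KLK2 and KLK3 (prostate-specific antigen) are close paralogs whose reads may be shared; the difference was -0.12 (SE 0.058, adjusted p = 0.361) for KLK2 and -0.27 (SE 0.13, adjusted p = 0.392) for KLK3. MYC, which fell with DHT, differed by -0.09 (SE 0.090, adjusted p = 0.761). TMPRSS2 differed by 0.24 (SE 0.077, adjusted p = 0.06898) and was called at 0.0217 when only the 8 libraries of the contrast were fitted. ERG, which is driven by the TMPRSS2 promoter in these cells, was called higher in Ver, by 0.29 (SE 0.072, adjusted p = 0.00797), and lost the call with Ver control replicate 2 (adjusted p = 0.0869), Vc DHT replicate 2 (0.0562) or Vc control replicate 2 (0.0737) left out. UGT2B15, whose enzyme glucuronidates DHT, had 6.15 and 6.18 CPM with DHT and 86.7 and 83.5 CPM in control in Ver, against 3.12 and 1.52 CPM with DHT and 48.97 and 41.8 CPM in control in Vc, with a difference of 0.45 (SE 0.26, adjusted p = 0.4803), and its paralog UGT2B17 gave -2.46 (SE 0.94, adjusted p = 0.174). UGT2B17 was low in every group, with means of 0.275 CPM with DHT and 4.37 CPM in control in Ver, against 0.409 and 1.16 CPM in Vc. Single libraries moved the differences of both genes. UGT2B15 differed by 1.11 without Vc DHT replicate 1 and by 0.08 without Vc DHT replicate 2. UGT2B17 differed by -1.72 without Ver DHT replicate 1 and by -3.95 without Ver DHT replicate 2. A p that misses the threshold does not show that the lines responded alike.

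The large DHT programmes moved in both lines. DHT raised 21.2% of all genes in Ver and 21.8% in Vc, and 2.32% were called for the difference by edgeR. A list below with no called member is therefore near the share over all genes. All 33 genes of the translocon and of the COPII and COPI coats, which carry proteins into and out of the endoplasmic reticulum, were higher with DHT in both lines, with median changes of 1.34 in Ver and 1.31 in Vc. None of the 33 was called for the difference by edgeR or by DESeq2, 1 had an unadjusted p below 0.05 by edgeR, against 12.2% of all genes, and their median difference was 0.04. All 27 endoplasmic reticulum stress and folding genes were likewise higher in both lines, with medians of 1.55 in Ver and 1.55 in Vc, and 1 was called for the difference: XBP1, a transcription factor of the unfolded protein response, with -0.31 (SE 0.075, adjusted p = 0.00759). Its call was lost with Vc DHT replicate 2 (adjusted p = 0.0823) or Vc control replicate 1 (0.0513) left out. DHT lowered 22.9% of all genes in Ver and 22.5% in Vc. Of 33 DNA replication and G1/S genes 29 were lower with DHT in Ver and 28 in Vc. For the difference 2 of the 33 were called lower by edgeR and 0 by DESeq2, with 3 at an unadjusted p below 0.05 and a median of -0.04: MCM2, a subunit of the replicative helicase, with -0.63 (SE 0.18, adjusted p = 0.0342), and CDT1, which loads that helicase, with -0.89 (SE 0.26, adjusted p = 0.0324). The call of MCM2 was lost with Ver DHT replicate 1 (adjusted p = 0.203), Ver control replicate 1 (0.0591), Ver control replicate 2 (0.0848), Vc DHT replicate 2 (0.254) or Vc control replicate 1 (0.199) left out, and by DESeq2 (0.0692). That of CDT1 was lost with Ver DHT replicate 1 (adjusted p = 0.0802), Ver DHT replicate 2 (0.1101), Ver control replicate 1 (0.114), Ver control replicate 2 (0.0654), Vc DHT replicate 1 (0.1196), Vc DHT replicate 2 (0.0899), Vc control replicate 1 (0.0508) or Vc control replicate 2 (0.145) left out, and by DESeq2 (0.06398) or with no low-count filter (0.0679). Of 29 mitosis genes 20 were lower with DHT in Ver and 22 in Vc. None of the mitosis genes was called for the difference by edgeR or by DESeq2, 2 had an unadjusted p below 0.05, and their median was 0.17. Of 34 cytosolic ribosomal protein genes 33 were lower in Ver and 34 in Vc, and none was called for the difference by edgeR or by DESeq2, with 3 at an unadjusted p below 0.05.

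Smaller groups held named exceptions, to be read against 0.891% of all genes called higher for the difference and 1.43% lower. Of 25 cholesterol synthesis and uptake genes 23 were higher with DHT in each line, where 21.2% of all genes were in Ver and 21.8% in Vc, the median difference was -0.18, and 2 were called lower, among them LSS, lanosterol synthase, with -0.47 (SE 0.075, adjusted p = 1.4e-06). Of 19 luminal epithelial genes 3 were called lower, KRT19, FOXA1 and the claudin gene CLDN4, with a list median of -0.17; the call of CLDN4 was lost with Ver DHT replicate 1 (adjusted p = 0.108), Ver DHT replicate 2 (0.0789), Ver control replicate 2 (0.311), Vc DHT replicate 2 (0.2903), Vc control replicate 1 (0.111) or Vc control replicate 2 (0.135) left out, and by DESeq2 (0.0862), with no low-count filter (0.135) or with only the 8 libraries of the contrast (0.0716). Of 13 A-kinase anchoring genes AKAP12 was called higher and AKAP7 and AKAP13 lower, with a median of -0.04, and AKAP13 was lost with Ver DHT replicate 1 (adjusted p = 0.186), Ver control replicate 1 (0.0633), Vc DHT replicate 2 (0.0682) or Vc control replicate 1 (0.0833) left out. In the antioxidant list of 20, GPX3 and SOD2 were lower and GPX8 higher, with a median of -0.08; GPX8 was below 5 CPM in all 8 libraries, and its call was lost with Ver DHT replicate 1 (adjusted p = 0.0959), Ver DHT replicate 2 (0.0622), Ver control replicate 2 (0.371), Vc DHT replicate 1 (0.0915), Vc DHT replicate 2 (0.0884), Vc control replicate 1 (0.175) or Vc control replicate 2 (0.0575) left out, and with no low-count filter (0.0639). Of 13 Hedgehog pathway genes the ligand SHH was called higher and the ligand IHH and the co-receptor BOC lower, with a median of -0.13. SHH had 4.19 and 3.32 CPM with DHT and 25.99 and 26.3 CPM in control in Ver, against 11.5 and 11.4 CPM with DHT and 158 and 159.6 CPM in control in Vc, a difference of 1.00 (SE 0.20, adjusted p = 4.6e-04), a call that was lost with Ver DHT replicate 1 (adjusted p = 0.105) left out. IHH had 5.26 and 4.52 CPM with DHT and 24.9 and 24.3 CPM in control in Ver, against 29.97 and 27.3 CPM with DHT and 74.2 and 75.5 CPM in control in Vc, and differed by -0.95 (SE 0.19, adjusted p = 1.5e-04). The call of BOC was lost with Ver DHT replicate 2 (adjusted p = 0.188), Ver control replicate 1 (0.102), Vc DHT replicate 2 (0.138) or Vc control replicate 1 (0.158) left out. Of 39 lists 12 held no called member, and the medians of the 38 lists with at least 3 tested members ran from -0.23 to 0.35.

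**Figure D3:**
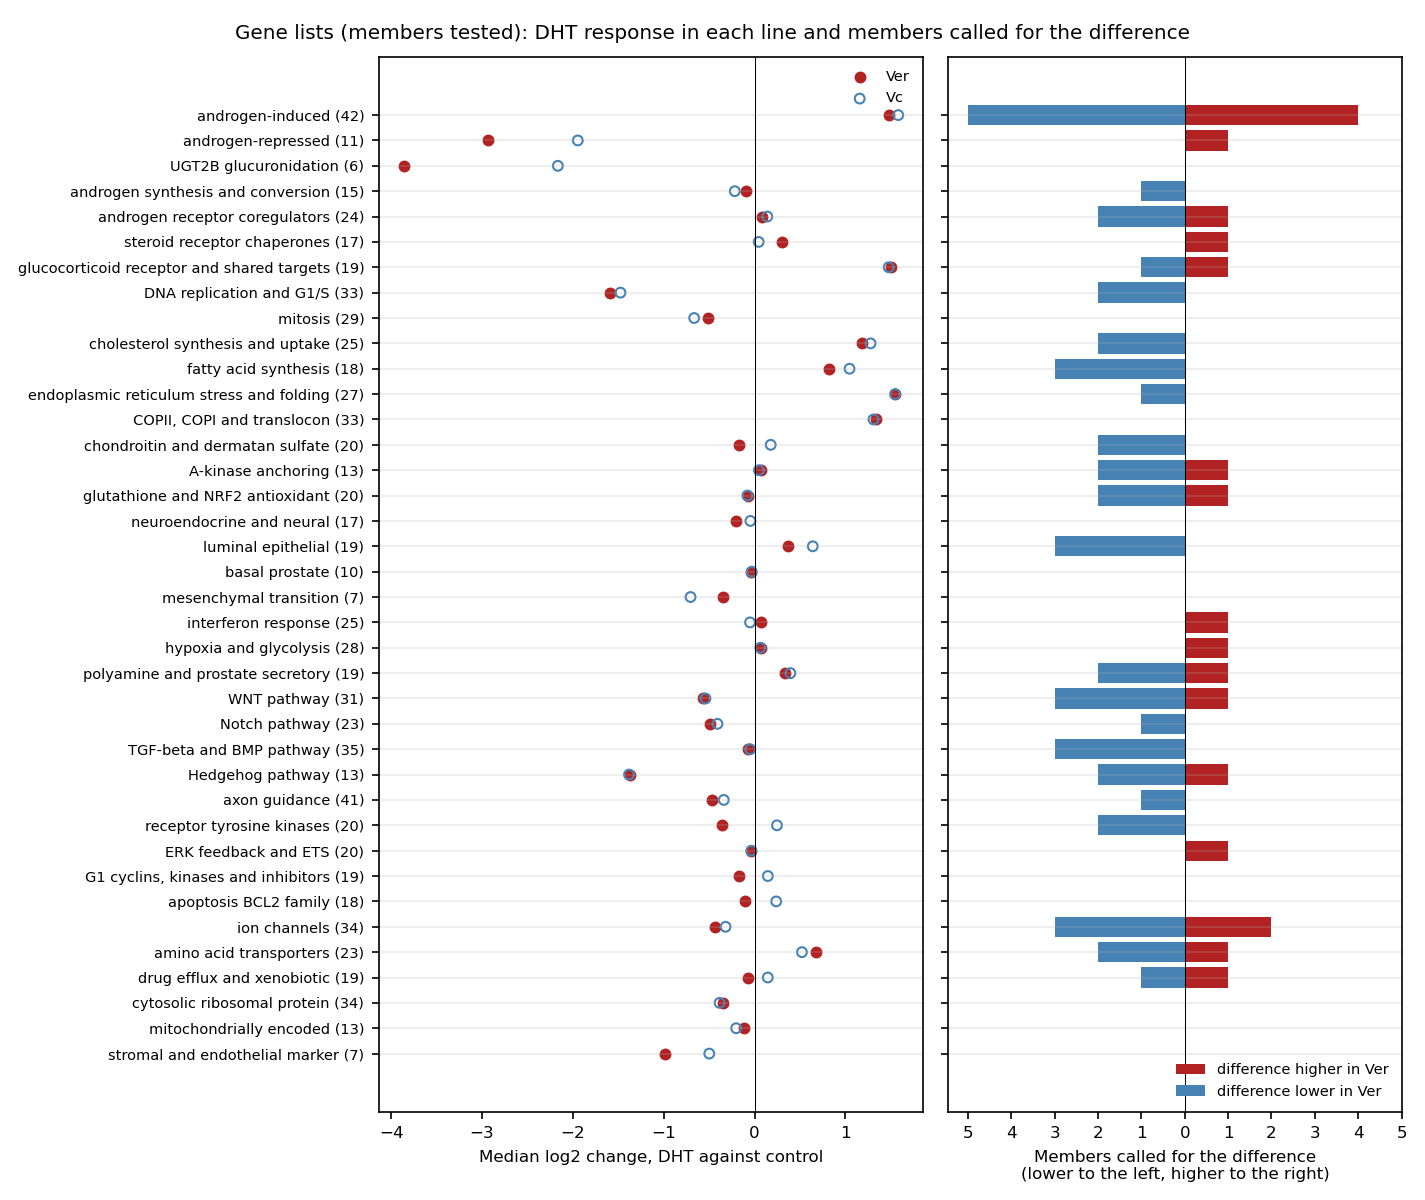
Left, the median log2 change with DHT in each gene list, Ver as filled red and Vc as open blue circles, with the number of members tested in brackets; right, bars count members called for the difference, higher in Ver to the right and lower to the left. The translocon and coat list stands at 1.34 in Ver and 1.31 in Vc, and no bar is longer than 5 genes.

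For each of the 523 genes the difference can be read as a change in the gap between the lines. Ver and Vc differed in control only for 205 of them (39.2%), with DHT only for 151 (28.9%), in both states in the same direction for 115 (21.99%) and in both in opposite directions for 45 (8.60%). In 7 genes (1.34%) neither gap was called. Over all genes tested Ver differed from Vc in 18.9% in control and in 17.3% with DHT. The gap was smaller with DHT than in control for 284 of the 523 genes. By direction, it was so for 146 of the 201 genes whose response was higher in Ver. Their median absolute gap was 0.28 log2 units with DHT and 0.53 in control. For the 322 lower genes the gap was smaller with DHT in 138, with medians of 0.35 with DHT and 0.30 in control. These gaps come from the same libraries as the difference and are given as a description. How often the gap was smaller with DHT over all genes tested was not computed.

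**Figure D4:**
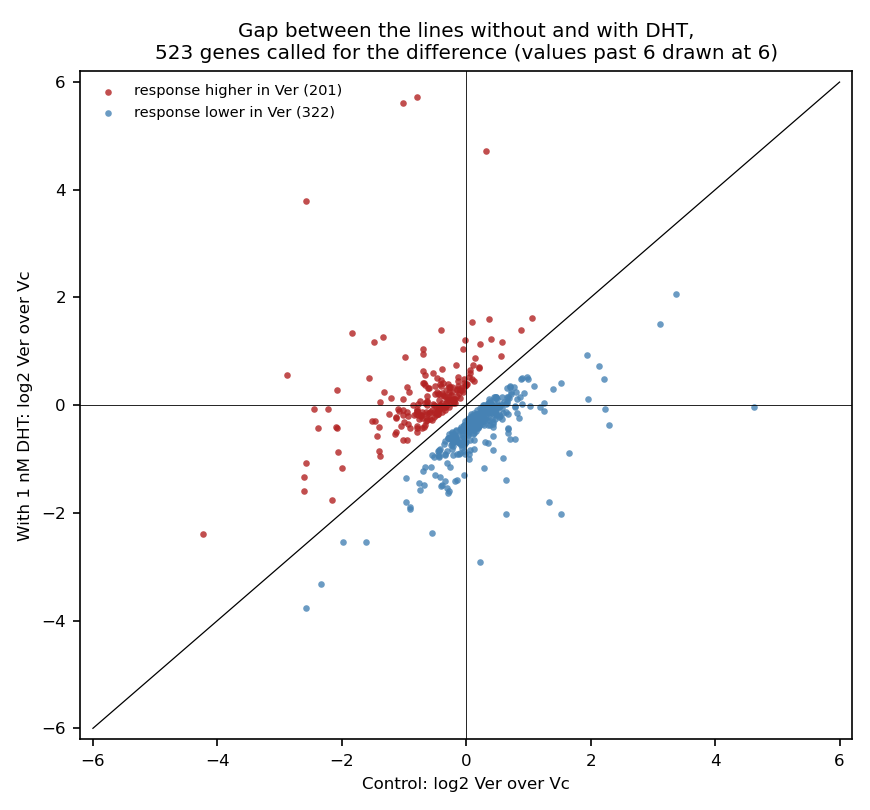
Each point is 1 of the 523 genes: the x axis is log2 Ver over Vc in control and the y axis the same ratio with 1 nM DHT (values past 6 drawn at 6). Red genes, whose response was higher in Ver, lie above the diagonal and blue genes below it by construction; many red genes lie left of 0 in control and near 0 with DHT.

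The same difference can be taken in the other 8 libraries of the series, in which both lines were treated with 1 µM enzalutamide for 24 h, with or without 1 nM DHT. No library is shared. There 573 genes were called (2.54%; 255 higher, 1.13%, and 318 lower, 1.41%). That count was 302 without Ver DHT-enzalutamide replicate 1, 342 without Ver enzalutamide replicate 1, 304 without Vc DHT-enzalutamide replicate 1 and 280 without Vc enzalutamide replicate 2. Of the 523 genes 409 (78.2%) had the same sign. The share of equal signs over all genes tested was not computed. Of the 523, 106 were called in the same direction, which is 20.3% of the 523 and 18.5% of the 573, and 2 were called the other way. GPX3 differed by -1.22 (SE 0.10, adjusted p = 2.9e-19) with the drug present, MCCC2 by -0.84 (SE 0.077, adjusted p = 9.9e-17), CKB by -0.63 (SE 0.074, adjusted p = 1.1e-09) and NUCB2 by 0.89 (SE 0.093, adjusted p = 2.0e-13). SIPA1L2, MOCOS and MME were also higher in Ver, by 1.29, 1.22 and 0.67, and of these MOCOS was not called without Ver enzalutamide replicate 2 (adjusted p = 0.112), where it differed by 0.78. AKAP12 (0.55, adjusted p = 0.1397), CYP1A1 (0.16, adjusted p = 0.841) and SLC45A3 (-0.20, adjusted p = 0.107) were not called there; AKAP12 was called without Ver enzalutamide replicate 2 (adjusted p = 0.0379), and differed by 0.36 without Ver enzalutamide replicate 1. CYP1A1 turned to -0.07 without Ver DHT-enzalutamide replicate 2. Whether the 2 differences differ from each other was not tested.

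In those libraries 1 of the 42 androgen-induced genes was higher and 14 lower, where 1.13% of all genes were higher and 1.41% lower. The median of the list was -0.24, against -0.004 over all genes. Whether the list stood differently in the 2 sets of libraries was not tested. Its lower count was 10 to 15 over the fits without 1 library, by DESeq2 15. FKBP5 is among the 14. With the drug it had 114 and 149 CPM with DHT and 61.4 and 60.5 CPM without it in Ver, and 228 and 253 CPM with DHT and 51.2 and 51.6 CPM without it in Vc, a difference of -1.11 (SE 0.12, adjusted p = 1.6e-07). The DHT libraries did not overlap between the lines there, while in the drug-free groups they did. STEAP2 differed by -0.76 and STEAP1 by -0.54.

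**Figure D5:**
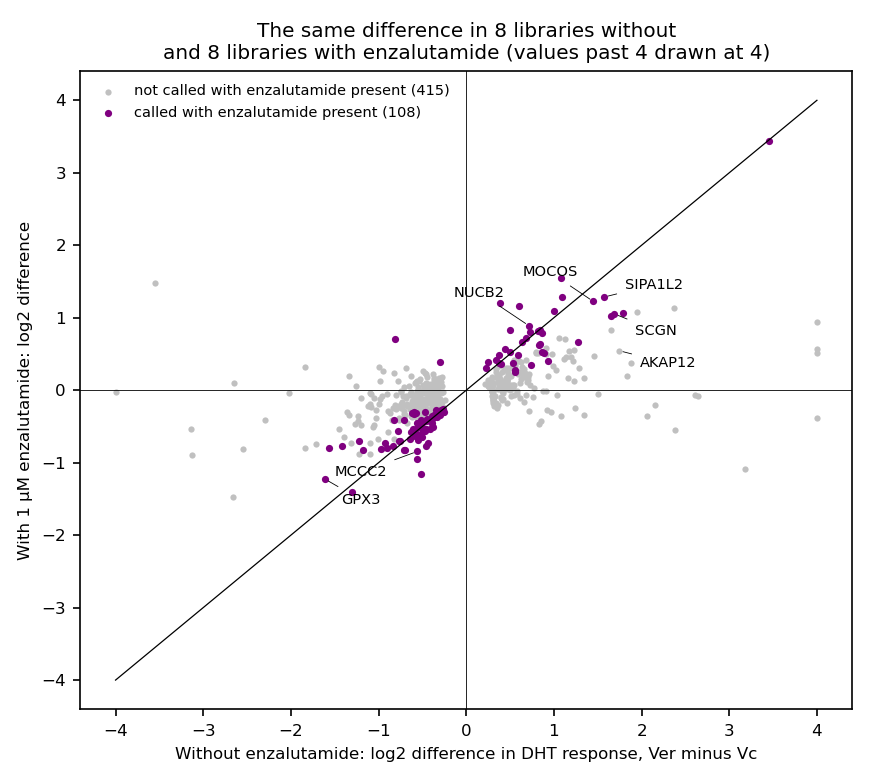
Each point is 1 of the 523 genes: the x axis is its log2 difference in DHT response, Ver minus Vc, in the 8 libraries without enzalutamide and the y axis the same difference in the 8 libraries with it (values past 4 drawn at 4). Purple marks genes called in both sets, and most of these lie in the quadrants of equal sign, with 2 exceptions.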

How the data were processed

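VCaP cells were starved and treated as given above, and polyA RNA was sequenced in 16 libraries. The authors deposited whole-number read counts per gene for each library, and 1 table of normalized signal. Its values are the counts over size factors, and only its gene names were taken. Tools in the submitters' processing notes are HTSeq 0.11.1, HISAT2, SAMtools, Trimmomatic 0.36-5 and FastQC 0.11.7, and the build is GRCh38. The deposited count files are marked union mode without strand.

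Genes were kept by filterByExpr (minimum count 10, minimum total 15), scaled by TMM and fitted with edgeR 4.0.16 in R 4.3.3 to 16 libraries in 8 groups, which leaves 8 residual degrees of freedom. The robust quasi-likelihood F test, two-sided, was adjusted by Benjamini-Hochberg over the 22553 genes, and a gene was called below 0.05. Every adjusted p is from this test, unless DESeq2 is named beside it, where it is from DESeq2's own test. Those given for a left-out library or another setting are from the edgeR test in that fit. SE is the Wald standard error of the log2 value from the fitted variance, or from counting where larger. CPM uses TMM-adjusted library sizes. Alternatives were DESeq2 1.42.0, its size factors, no filter, only the libraries of the contrast, a replicate block and leaving out each library. The fit was also run on simulated data in which most genes had the same mean in all groups, unlike these data. Nothing above rests on that run.

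The comparison, the gene lists and the naming rule were chosen with earlier results of these data known. The rule named fixed androgen targets, the 12 called genes with the largest difference each way at a mean of at least 5 CPM, in each list the 4 called members of lowest adjusted p, and 5 genes per response pattern. It gave 107 genes, of which the text names a part. TRPM8 lies outside the rule and was named after its value was seen, to complete a count; other genes outside it are named only as overlapping neighbours or copies. Positions are from GENCODE 29 (GRCh38) and promoters from RefSeq. Some genes are not reported here.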

Additional observations from a re-analysis of the deposited data

Results flagged for a closer look

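The test of the difference between the lines passed for 523 genes without enzalutamide and for 573 genes in the 8 libraries with it. Of the 14 genes that rose with DHT in Ver and fell in Vc, those named above are SULT1C2 (log2 difference 1.83), AKAP12 (1.74), SIPA1L2 (1.57), CYP1A1 (1.34) and LINC00662 (0.88). Of the 11 that did the reverse, GPX3 is named above (log2 difference -1.62). In the libraries with enzalutamide the same difference of GPX3 was -1.22 and that of SIPA1L2 1.29. Groups of 2 libraries are too small to test a single library as an outlier.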

How the results depend on the processing

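The number of genes called for the difference was 397 with DESeq2, 518 with its size factors, 418 with no low-count filter and 475 with only the 8 libraries of the contrast, against 523. Leaving out 1 library gave 300 to 529 for the difference and 280 to 478 for the difference under enzalutamide. The lowest counts, 300, 318, 323 and 325, and 280, 302, 304 and 342 under enzalutamide, came without the libraries named above. The responses gave 8407 to 8636 genes in Ver and 8459 to 8687 in Vc. Ver against Vc gave 2828 to 3191 genes in control, with 2828 without Ver control replicate 2 against 4252 with all libraries, and 2666 to 3076 with DHT. These fits have fewer libraries and fewer degrees of freedom. With the replicate number as a block 536 genes were called for the difference, 519 of them among the 523. Same-numbered libraries did not deviate together: over 6 pairs of groups the correlations of their deviations ran from -0.0487 to 0.0416, so the numbers were not taken as pairs. In the libraries without enzalutamide no named gene changed the sign of its difference in any alternative, and TMPRSS2 was the 1 named gene whose difference was called in an alternative and not otherwise. With 2 libraries per group, small differences and genes of few counts are the least certain, and an adjusted p that DESeq2 gave as missing was left missing.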
